A study of Mus musculus with 20 samples.

Results

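The small leucine-rich proteoglycans examined here were 7 genes, Dcn, Bgn, Aspn, Lum, Fmod, Prelp and Ogn, taken by symbol from the single-cell count table of the series, which lists 16003 genes. All 7 were found. They were followed through each of the 14 clusters that the study assigned to 21016 cells and through each of 6 libraries, as UMIs (reads that carry the same molecular tag, counted once) summed over the cells of a cluster in a library and scaled to the total UMIs of those cells (CPM, counts in every 1000000). The 7 proteins are secreted into the extracellular matrix, where their leucine-rich repeats bind collagen fibrils and several growth factors. Decorin (Dcn), biglycan (Bgn) and asporin (Aspn) make up class I of the family, of which decorin and biglycan carry chondroitin or dermatan sulfate chains. Lumican (Lum), fibromodulin (Fmod) and PRELP (Prelp) belong to class II, in which keratan sulfate is the usual chain, and osteoglycin (Ogn) to class III. In the spinal cord such matrix proteins are known chiefly from the meninges, from fibroblasts around vessels and from the fibrotic scar that forms after injury.

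The study compared cords with and without microglia after a contusion. Female C57BL/6J mice, aged 8 to 10 weeks, ate vehicle chow or chow with PLX5622 at 1200 ppm, a CSF1R antagonist that depletes microglia, from 2 weeks before surgery to the end point. The surgery was a contusion of the cord at vertebral level T9 or, in sham mice, a laminectomy alone. A 1 cm piece of cord was dissociated, cleared of myelin debris and dead cells, and turned into 1 library per condition from the pooled cords of 3 to 4 mice. The conditions were sham, 7 days post-injury (dpi) and 28 dpi, each under vehicle and under PLX5622. Either sham library carries both times, 7 and 28 d, in its labels, so the sham library of a diet served as the reference for both times. Because each condition was 1 library, no test between conditions could be made. Exact 95% intervals are given for CPM (Poisson), for ratios (conditional binomial) and for shares (Clopper-Pearson), and they cover counting error only, not the spread between mice. A UMI marks the end of 1 transcript and was not scaled by gene length, so levels of different genes are set side by side without a claim on their relative amounts of RNA.

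The libraries held 492 to 9846 cells, a median of 2268.5 to 5127 UMIs per cell, and 2606149 to 35694246 UMIs in all. In the count table, genes seen in very few cells of a library were written as 0 for that library, 506 to 1181 genes depending on the library. This touched Lum and Fmod in sham PLX5622, whose own matrix before filtering held 3 Lum UMIs in 2 cells of cluster 12 and 2 Fmod UMIs in 2 cells of cluster 4. Of the barcodes, 44 occurred in more than 1 library, in 88 cells, of which 7 lay in clusters 12 and 13.

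The clusters were checked against marker genes, none of which was a member of the family. Cluster 12 had the highest level of 5 of 6 fibroblast markers and of 7 of 7 mural markers (Rgs5, Kcnj8, Abcc9, Notch3, Higd1b, Vtn and Acta2), so it is called here the fibroblast- and mural-marker cluster. The study names it pericytes and shows Dcn, itself a member of the family, as its representative gene. The genes that set it apart most, by fold over all other cells, were Dpt, Lum, Mfap4, Ccl11, Ebf2, Myoc, Aspn, Abca8a, Fbn1 and Pi16, among which no mural marker stood and 2 members of the family did. Cluster 13 had the highest level of 4 of 7 measured leptomeningeal markers, with Slc47a1 and Crabp2 among its leading genes, and is called leptomeningeal-like. The leptomeningeal markers Aldh1a2 and Slc6a13 were at 0 in it and highest in cluster 12, at 59.1 and 124 CPM. Endothelial-like cluster 2, astrocyte-like cluster 4 and ependymal-like cluster 6 each had the highest level of 4 of 4 of their markers, and oligodendrocyte-like cluster 11 and microglia-like cluster 0 of 3 of 4.

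Several members are neighbours in the genome (RefSeq, GRCm38.p6). Aspn (chr13:49544443-49567565) and Ogn (chr13:49608015-49624501) lie on chromosome 13 in a row of 4 leucine-rich repeat genes, with Ecm2 11.7 kb before Aspn and Omd between Aspn and Ogn. Dcn (chr10:97479500-97518163) and Lum (chr10:97565501-97572703) are 47.3 kb apart on chromosome 10, Prelp (chr1:133910304-133930102) and Fmod (chr1:134037254-134048280) are 107 kb apart on chromosome 1, and Bgn (chrX:73483601-73495936) lies on the X chromosome. The promoters of Aspn and Ogn are printed because these neighbours had the most similar profiles of any pair of members, and that of Prelp because its profile was led by another cell type. Each runs from 250 bases before to 50 bases after the start site in RefSeq, 5′ to 3′ on the strand of the gene, at chr13:49544193-49544492 (+) for Aspn, chr13:49607765-49608064 (+) for Ogn and chr1:133921352-133921651 (-) for Prelp, whose window lies inside the annotated gene span. Capitals mark matches of the 4 motifs searched on both strands: the TATA box (TATAAA), the AP-1 motif (TGANTCA), the TEAD motif (GGAATG) and the forkhead motif (GTAAACA).
Aspn: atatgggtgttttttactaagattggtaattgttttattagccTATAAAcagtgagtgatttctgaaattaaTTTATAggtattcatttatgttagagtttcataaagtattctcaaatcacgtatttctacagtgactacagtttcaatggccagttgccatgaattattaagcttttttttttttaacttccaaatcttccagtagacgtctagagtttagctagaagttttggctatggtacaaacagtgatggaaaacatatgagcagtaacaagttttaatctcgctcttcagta
Ogn: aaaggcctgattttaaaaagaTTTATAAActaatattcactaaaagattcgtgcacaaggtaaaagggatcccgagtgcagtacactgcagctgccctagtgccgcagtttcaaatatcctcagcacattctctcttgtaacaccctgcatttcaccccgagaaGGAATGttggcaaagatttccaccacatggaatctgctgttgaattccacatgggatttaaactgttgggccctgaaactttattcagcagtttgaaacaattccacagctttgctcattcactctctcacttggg
Prelp: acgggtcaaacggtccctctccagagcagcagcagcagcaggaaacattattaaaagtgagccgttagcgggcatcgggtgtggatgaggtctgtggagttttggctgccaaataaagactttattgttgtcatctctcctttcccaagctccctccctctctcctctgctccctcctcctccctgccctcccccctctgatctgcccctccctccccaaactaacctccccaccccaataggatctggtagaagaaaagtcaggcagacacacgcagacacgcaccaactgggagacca

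TATAAA matched the Aspn window at 2 places, with its first base at position -207 on the gene's strand and at -178 on the opposite strand, counted from the start site. In the Ogn window TATAAA matched at -229 on the opposite strand and at -227 on the gene's strand, in letters that overlap, and GGAATG matched at -86. The Prelp window held none of the 4 motifs, nor did those of Bgn and Fmod. TATAAA occurred in 13.6% of 32851 promoter windows of the same length, GGAATG in 14.7%, TGANTCA in 7.81% and GTAAACA in 3.65%, so each match is a description of these letters.

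Over the 6 libraries together, cells of clusters 12 and 13 held most of the family's UMIs. These 302 cells were 1.44% of all cells and carried 1.98% of all UMIs, and they held 13611 of the 16351 UMIs of the 7 members, 83.2% (interval 82.7 to 83.8%). By library the share was 95.6% in sham, 40.4% at 7 dpi and 70.3% at 28 dpi under vehicle and 83.5, 76.0 and 45.8% under PLX5622, so that the pooled value leans on the 8521 member UMIs of sham vehicle. Pooled, it was 98.0% for Dcn, 96.5% for Lum, 88.3% for Ogn, 86.8% for Aspn and 85.3% for Bgn. For Aspn it was 36.7% at 7 dpi vehicle, 48.0% at 28 dpi vehicle and 40% at 28 dpi PLX5622. The UMIs of Fmod and Prelp lay mostly in other clusters. Of 2425 Prelp UMIs, 72.1% lay in ependymal-like cluster 6 and 17.9% in clusters 12 and 13. Of the 83 Fmod UMIs, 45 (54.2%, interval 42.9 to 65.2%) lay in the 974 cells of astrocyte-like cluster 4, at 20.3 CPM, and 22 in the 168 cells of cluster 12, at 39.4 CPM.

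**Figure D1:**
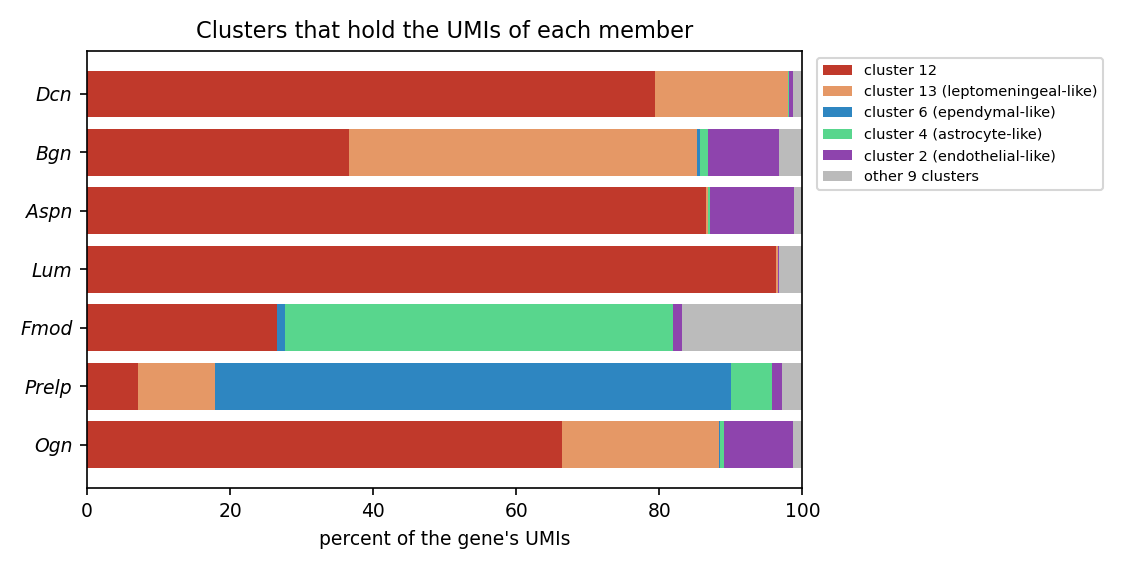
Horizontal bars give, for each of the 7 members, the percent of the gene's UMIs in all 6 libraries that lay in each cluster or group of clusters (x axis, 0 to 100%). Clusters 12 and 13 fill 85.3% or more of the bars of Dcn, Bgn, Aspn, Lum and Ogn, while cluster 6 fills 72.1% of the Prelp bar and cluster 4 54.2% of the Fmod bar.

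Within these clusters the members divided. Over all libraries, Dcn stood at 14175 CPM (13864 to 14491) in cluster 12 and 1769.5 CPM (1690 to 1852) in leptomeningeal-like cluster 13. Bgn was closer between these clusters, at 1161 CPM (1073 to 1254) and 824 CPM (770 to 880.5). Aspn and Lum were almost absent from cluster 13, where Aspn had 3 UMIs against 882 in cluster 12 and Lum 1 against 444. Ogn was 735 CPM in cluster 12 and 129 CPM in cluster 13, and Prelp 306 and 251 CPM. Fmod stood at 39.4 CPM in cluster 12 and had 0 UMIs in the 1048891 of cluster 13, a count that allows up to 2.86 CPM.

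Outside clusters 12 and 13 the levels were low with a few exceptions. Prelp reached 551 CPM (525 to 577) in ependymal-like cluster 6, above its level in cluster 12, and 62.2 CPM in astrocyte-like cluster 4. In endothelial-like cluster 2 the levels were 43.7 CPM for Bgn, 30.0 CPM for Aspn, 15.0 CPM for Ogn and 14.2 CPM for Dcn. In oligodendrocyte-like cluster 11, Dcn was 55.3 CPM, but 17 of its 44 UMIs came from 1 cell of 28 dpi PLX5622 and 15 from 1 cell of 7 dpi PLX5622, and 19 of 31 Prelp UMIs likewise came from a single cell. In clusters 0, 1, 3, 5, 7, 8, 9 and 10, which include the microglia-like cells, no member exceeded 3.82 CPM over the 6 libraries together.

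**Figure D2:**
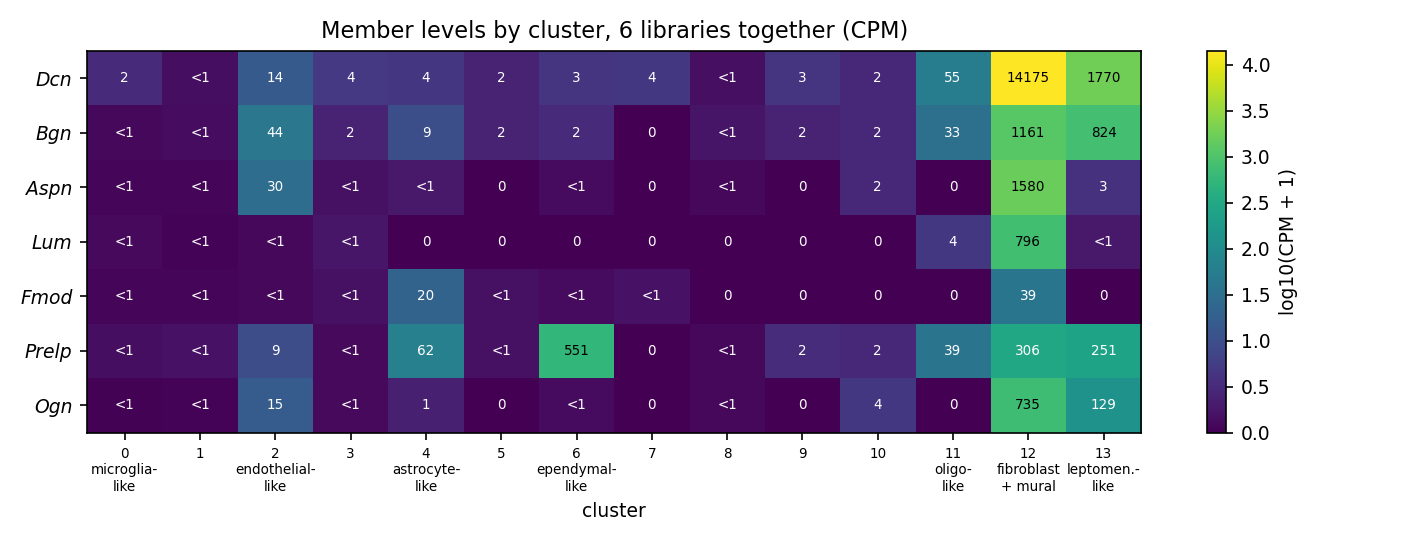
Each square is a member (rows) in a cluster (columns, with cell type names where the text uses them), coloured by log10(CPM + 1) over the 6 libraries together and printed with its CPM. Dcn, Bgn, Prelp and Ogn are high in both cluster 12 and cluster 13, Aspn and Lum are high in cluster 12 and near 0 in cluster 13, and the highest Prelp square, 551 CPM, is in ependymal-like cluster 6.

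The number of members seen in 1 cell depended on depth. After each cell was thinned to 1000 UMIs, which left out 54 of 168 cells of cluster 12 and 10 of 134 of cluster 13, 86.0% of the cells of cluster 12 had a UMI of at least 1 member and 61.4% of at least 2. In cluster 13 these shares were 79.8% and 31.4%. In microglia-like cluster 0, which serves as the background from free RNA, 0.518% of 5792 thinned cells had a member UMI and 0 had 2. This background was pooled over libraries whose summed member level ran from 25.1 to 1186 CPM. That of a single library, such as sham vehicle, may differ from it. Dcn alone was seen in 54.4% of thinned cells of cluster 12, 42.7% of cluster 13 and 0.311% of microglia-like cells. Unthinned, the order of the clusters was the reverse: 85.7% of the cells of cluster 12 and 95.5% of cluster 13 had a member UMI, and 60.7% and 76.1% had at least 2 members.

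Cells of cluster 12 were then divided by whether they held more UMIs of the 6 fibroblast markers or of the 7 mural markers. This gave 70 fibroblast-marker cells, 93 mural-marker cells and 5 with equal counts. The division is a range and not a type, since 11 of the 70 and 2 of the 93 lay within 2 UMIs of the border. The median fibroblast-marker cell had 16 UMIs of fibroblast markers and 0 of mural markers, and the median mural-marker cell 0 and 26. Of the leptomeningeal markers they held 19 and 3 UMIs, so that the fibroblast-marker cells also carried those. None of the 7 members entered the division.

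The fibroblast-marker cells held nearly all the Dcn and Lum of the cluster. They carried 96.8% of its Dcn UMIs, 98.6% of Lum, 90.8% of Aspn, 89.5% of Ogn, 87.1% of Prelp and 82.7% of Bgn. Dcn stood at 20003 CPM in them and at 874 CPM in mural-marker cells, where 11 of 93 cells had a Dcn UMI. Of those 146 Dcn UMIs, 113 came from 1 sham vehicle cell near the border, with 196 fibroblast and 208 mural marker UMIs, and without it the level was 212 CPM (146 to 298). Bgn and Aspn were the members most often seen in mural-marker cells, in 47 and 37 of 93, at 671 and 485 CPM. Lum was seen in 3 mural-marker cells.

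**Figure D3:**
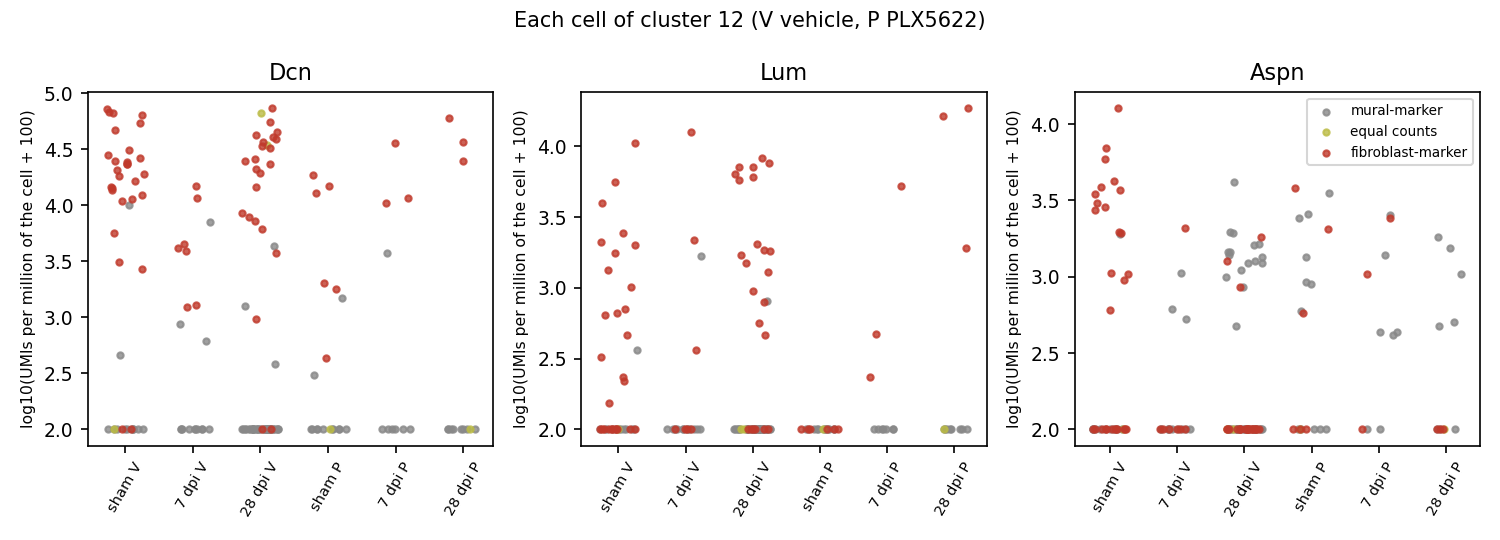
Each point is 1 cell of cluster 12 in its library (x axis, V vehicle, P PLX5622), with log10 of its UMIs of Dcn, Lum or Aspn as CPM of the cell, plus 100 (y axis), so that cells with 0 UMIs sit at 2.0. Fibroblast-marker cells carry the high Dcn and Lum values, 66 of 70 having a Dcn UMI, while Aspn is also seen in 37 of 93 mural-marker cells.

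The 70 fibroblast-marker cells were also divided by which of Lum and Aspn had more UMIs. More Lum than Aspn was counted in 29 cells and more Aspn than Lum in 23, with 18 equal. In the 29 cells Lum stood at 4558 CPM, Aspn at 152 CPM, Bgn at 568 CPM and Dcn at 38804 CPM. In the 23 cells Lum was 424 CPM, Aspn 3076 CPM, Bgn 1740.4 CPM, Ogn 1254 CPM and Dcn 15784 CPM. The cells also differed in depth, with a median of 1439 UMIs in the former and 10910 in the latter, and the part of depth was not tested. The values for Lum and Aspn follow from the way the cells were divided.

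The other members kept company unequally. All 25 cells with an Aspn UMI also had a Dcn UMI and a Bgn UMI, 23 had Ogn, 16 had Lum and 0 had Fmod. Of the 43 cells with Lum, 43 had Dcn and 26 had Bgn. Of 5 cells with Fmod, 5 had Dcn, Bgn and Ogn. By library, cells with more Lum than Aspn were 7 of 28 fibroblast-marker cells in sham vehicle, 2 of 7 at 7 dpi vehicle and 16 of 23 at 28 dpi vehicle, and they were 1 of 3 at 7 dpi PLX5622 and 3 of 3 at 28 dpi PLX5622. In sham PLX5622, where the count table has 0 for Lum, no cell could fall in this group. Its 6 fibroblast-marker cells entered the division with Lum at 0, 3 with more Aspn and 3 as equal. The pooled counts of cells by Lum rest on that 0. Cells with more Aspn than Lum numbered 15, 1 and 2 under vehicle and 3, 2 and 0 under PLX5622.

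In whole libraries the summed level of the 7 members was 1186 CPM in sham vehicle, 25.1 CPM at 7 dpi vehicle and 79.9 CPM at 28 dpi vehicle, and 838 CPM in sham, 427 CPM at 7 dpi and 181 CPM at 28 dpi under PLX5622. The injured vehicle libraries were thus the lowest of the 6. The share of cells that lay in clusters 12 and 13 was 3.79, 0.390 and 1.32% under vehicle and 6.71, 4.37 and 2.13% under PLX5622, so that the number of such cells and the RNA in each cannot be told apart in these totals. The comparisons that follow are therefore within a cluster.

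In cluster 12 of the vehicle libraries, Dcn, Aspn and Ogn were lower than in sham at both times. Lum was lower at 7 dpi and higher at 28 dpi, and Bgn the reverse. Dcn stood at 22034 CPM in sham (41 cells), 2209 CPM at 7 dpi (20 cells) and 10192 CPM at 28 dpi (66 cells). The ratio of 7 dpi to sham was 9.98-fold lower (log2 ratio -3.32, interval -3.63 to -3.02) and that of 28 dpi to sham 2.16-fold lower (-1.11, -1.21 to -1.01). Aspn was 2629 CPM in sham, 432 CPM at 7 dpi and 372 CPM at 28 dpi, 6.08-fold and 7.07-fold lower (log2 ratios -2.60 and -2.82). Ogn was 1085.5, 744 and 329.5 CPM in the same order. Its log2 ratio to sham was -0.54 (interval -1.13 to -0.0027) for 7 dpi and -1.72 (-2.31 to -1.18) for the later time.

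Bgn was higher at 7 dpi and lower at 28 dpi than in sham, at 1358 CPM in sham, 1945 CPM at 7 dpi and 755 CPM at 28 dpi (log2 ratios 0.52 and -0.85). Of the 81 Bgn UMIs at 7 dpi, 49 came from 1 cell, which also held 15 of the 18 Aspn UMIs. Without the cell richest in members in each library, the Bgn log2 ratio at 7 dpi was -0.38 (-0.96 to 0.15). Lum, the corneal and tendon proteoglycan, was 765 CPM in sham, 480 CPM at 7 dpi and 1201 CPM at 28 dpi, with a log2 ratio of -0.67 (-1.42 to -0.00225) at 7 dpi and 0.65 (0.30 to 1.00), 1.57-fold higher, at 28 dpi. Of its 113 UMIs at 28 dpi, 35 came from 1 cell. Of its 20 UMIs at 7 dpi, 14 came from 1 cell. Without the cell richest in members in each library, which at 7 dpi was another cell, that ratio was -0.63 (-1.42 to 0.07). Prelp was 311, 384 and 319 CPM, and both of its intervals held 0. Fmod had 0 UMIs in sham, which allows up to 12.97 CPM, 6 in 4 cells at 7 dpi (144 CPM, 52.9 to 313.5) and 16 in 3 cells at 28 dpi (170.0 CPM, 97.2 to 276), 10 of the 16 in 1 cell.

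Over the 6 members with at least 20 UMIs in the pair of libraries, 0 were more than 2-fold higher and 2 were more than 2-fold lower at 7 dpi, beside 11.4% and 17.8% of all 2524 genes tested in that comparison. The median log2 ratio of these members was -0.61 and that of all genes -0.05. At 28 dpi 0 were higher and 3 lower, beside 8.41% and 17.8% of 2914 genes, with medians of -0.98 and -0.15. The sum of the 7 members was 4.45-fold lower at 7 dpi (log2 ratio -2.15, -2.34 to -1.98) and 2.11-fold lower at 28 dpi (-1.08, -1.17 to -0.99). Dcn alone carried much of the difference at 7 dpi, since the other 6 members together had a log2 ratio of -0.57 (-0.81 to -0.35).

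The make-up of cluster 12 moved with these ratios. Fibroblast-marker cells were 28 of 41 cells in sham vehicle, 7 of 20 at 7 dpi and 23 of 66 at 28 dpi. The summed level of the 6 fibroblast markers was 20598 CPM in sham, 9627 CPM at 7 dpi and 7216 CPM at 28 dpi, with 0 of the 6 markers at 0 in these libraries, and that of the 7 mural markers 4242, 9723 and 9405 CPM. The 5 myeloid genes C1qa, C1qb, C1qc, Tyrobp and Fcer1g summed to 636, 1849 and 5494 CPM. Without the cells that carried 3 or more of these UMIs, the log2 ratio of the 7 members was -2.21 at 7 dpi and -1.01 at 28 dpi. Within fibroblast-marker cells, 23 at 28 dpi and 28 in sham, the log2 ratio of Dcn was -0.25 (-0.36 to -0.15) and that of the 7 members -0.27 (-0.37 to -0.18). Aspn was -3.11 (-3.99 to -2.36) and Ogn -1.29 (-2.03 to -0.63) in these cells, and Lum was 1.67 (1.32 to 2.02). Of the 112 Lum UMIs at 28 dpi, 35 came from 1 cell. The fibroblast-marker cells had a median of 5815.5 UMIs in sham, 1121 at 7 dpi and 1409 at 28 dpi. The part of this depth in their levels and ratios was not tested. At 7 dpi, with 7 such cells, no ratio was formed. Their levels against the 28 sham cells were 3681 and 25128 CPM for Dcn and 682 and 3032 CPM for Aspn. Ogn was 1182 and 1226 CPM, Lum 818 and 878 CPM, Bgn 3000 and 1428 CPM and Prelp 591 and 343 CPM. Ogn in mural-marker cells was 254.5 CPM at 7 dpi and 246 CPM in sham, where all 8 UMIs came from 1 cell. In mural-marker cells, 41 at 28 dpi and 12 in sham, the log2 ratio of Aspn was 0.91 (-0.38 to 2.39), with all 7 sham UMIs in 1 cell.

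Under PLX5622 the sham library had less Dcn in cluster 12 than the vehicle sham library. Dcn was 7066 CPM in sham PLX5622 (19 cells) against 22034 CPM, 3.12-fold lower (log2 ratio -1.64, -1.75 to -1.53). Aspn was 1342 CPM against 2629 CPM (-0.97, -1.24 to -0.71) and Ogn 647.5 CPM against 1085.5 CPM (-0.75, -1.15 to -0.36). Bgn was 1257.5 CPM and Prelp 206.5 CPM under PLX5622, and the intervals of both ratios held 0. Lum, with 3 UMIs in the library's own matrix against 177 in sham vehicle, was 27.2-fold lower (-4.76, -7.06 to -3.19).

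Of the 6 members tested in this sham comparison, 0 were more than 2-fold higher and 2 more than 2-fold lower, beside 8.72% and 10.5% of 3098 genes, with medians of -0.86 for the members and -0.03 for all genes. The sum of the 7 members was 2.68-fold lower (log2 ratio -1.42, -1.51 to -1.33). Fibroblast-marker cells were 6 of 19 in sham PLX5622 against 28 of 41 in sham vehicle, the fibroblast markers summed to 7948 CPM against 20598 CPM with all 6 detected, and the mural markers to 10820 CPM against 4242 CPM. Of the 753 Dcn UMIs in sham PLX5622, 96.6% came from 3 cells. Within fibroblast-marker cells Dcn was 10806.5 CPM in sham PLX5622 (6 cells) and 25128 CPM in sham vehicle (28 cells), and no ratio was formed. In mural-marker cells alone, 12 in each library, the log2 ratio of Aspn was 2.23 (1.04 to 3.64), but the 7 UMIs of sham vehicle came from 1 cell, and without the mural-marker cell richest in members in each library the ratio was 1.16 (-0.12 to 2.63).

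At 7 dpi the order between diets was the opposite for Dcn. It stood at 13470 CPM under PLX5622 (10 cells) and 2209 CPM under vehicle (20 cells), 6.10-fold higher (log2 ratio 2.61, 2.30 to 2.94). Aspn was 1104 CPM against 432 CPM (1.35, 0.59 to 2.19) and Lum 1167 CPM against 480 CPM (1.28, 0.55 to 2.07). Bgn was 520.5 CPM against 1945 CPM, 3.74-fold lower (-1.90, -2.53 to -1.30), and Ogn 426 CPM against 744 CPM. Prelp was 410 and 384 CPM. Of 6 members tested, 3 were more than 2-fold higher and 1 more than 2-fold lower, beside 14.0% and 13.1% of 864 genes, with medians of 0.69 and -0.07.

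These values rest on very few cells. In the 7 dpi PLX5622 library 3 cells held 98.7% of the Dcn UMIs of cluster 12, and 1 cell held 448 of 854 Dcn UMIs and 64 of 74 Lum UMIs. Another cell of that library held 50 of its 70 Aspn UMIs, and 1 cell of 7 dpi vehicle held 15 of 18. Without the cell richest in members in each library, the Lum log2 ratio was -1.43 (-2.70 to -0.23), and that of the 7 members 1.07 (0.82 to 1.32) in place of 1.43 (1.24 to 1.63). The cell so left out had 0 Aspn UMIs under PLX5622 and those 15 under vehicle. This alternative thus keeps the cell on which the Aspn level under PLX5622 rests. Without Dcn, the other 6 members had a log2 ratio of -0.19 (-0.48 to 0.11). Fibroblast-marker cells were 3 of 10 under PLX5622 and 7 of 20 under vehicle. Fibroblast markers summed to 12808 and 9627 CPM, mural markers to 6956 and 9723 CPM, and the 5 myeloid genes to 47.3 and 1849 CPM.

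At 28 dpi the diets lay closer. Dcn was 7495 CPM under PLX5622 (12 cells) and 10192 CPM under vehicle (66 cells), 1.36-fold lower (log2 ratio -0.44, -0.69 to -0.20). Within fibroblast-marker cells the order was the opposite. Dcn was 37011 CPM in the 3 such cells under PLX5622 and 21066 CPM in the 23 under vehicle, and no ratio was formed. Lum was 2828 CPM against 1201 CPM, 2.36-fold higher (1.24, 0.76 to 1.70), but 47 of its 60 UMIs under PLX5622 came from 1 cell. Without the cell richest in members in each library, which under PLX5622 was this cell, the Lum ratio turned to -0.66 (-1.62 to 0.18). Ogn had 1 UMI under PLX5622 and 31 under vehicle, a log2 ratio of -2.80 with an interval of -8.15 to -0.22. For Bgn (707 and 755 CPM), Aspn (377 and 372 CPM) and Prelp (236 and 319 CPM) the intervals held 0.

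Of the 6 members tested at 28 dpi between diets, 1 was more than 2-fold higher and 1 more than 2-fold lower, beside 9.59% and 22.1% of 907 genes, with medians of -0.26 and -0.23. The sum of the 7 members had a log2 ratio of -0.19 (-0.39 to 0.01), and of -1.13 without the cell richest in members in each library. Fibroblast markers summed to 1273 CPM under PLX5622, where Pdgfra and Col6a3 were at 0, and 7216 CPM under vehicle, and mural markers to 14754 and 9405 CPM, with Acta2 at 0 under PLX5622. All 159 Dcn UMIs of the PLX5622 library came from 3 cells of 12.

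**Figure D4:**
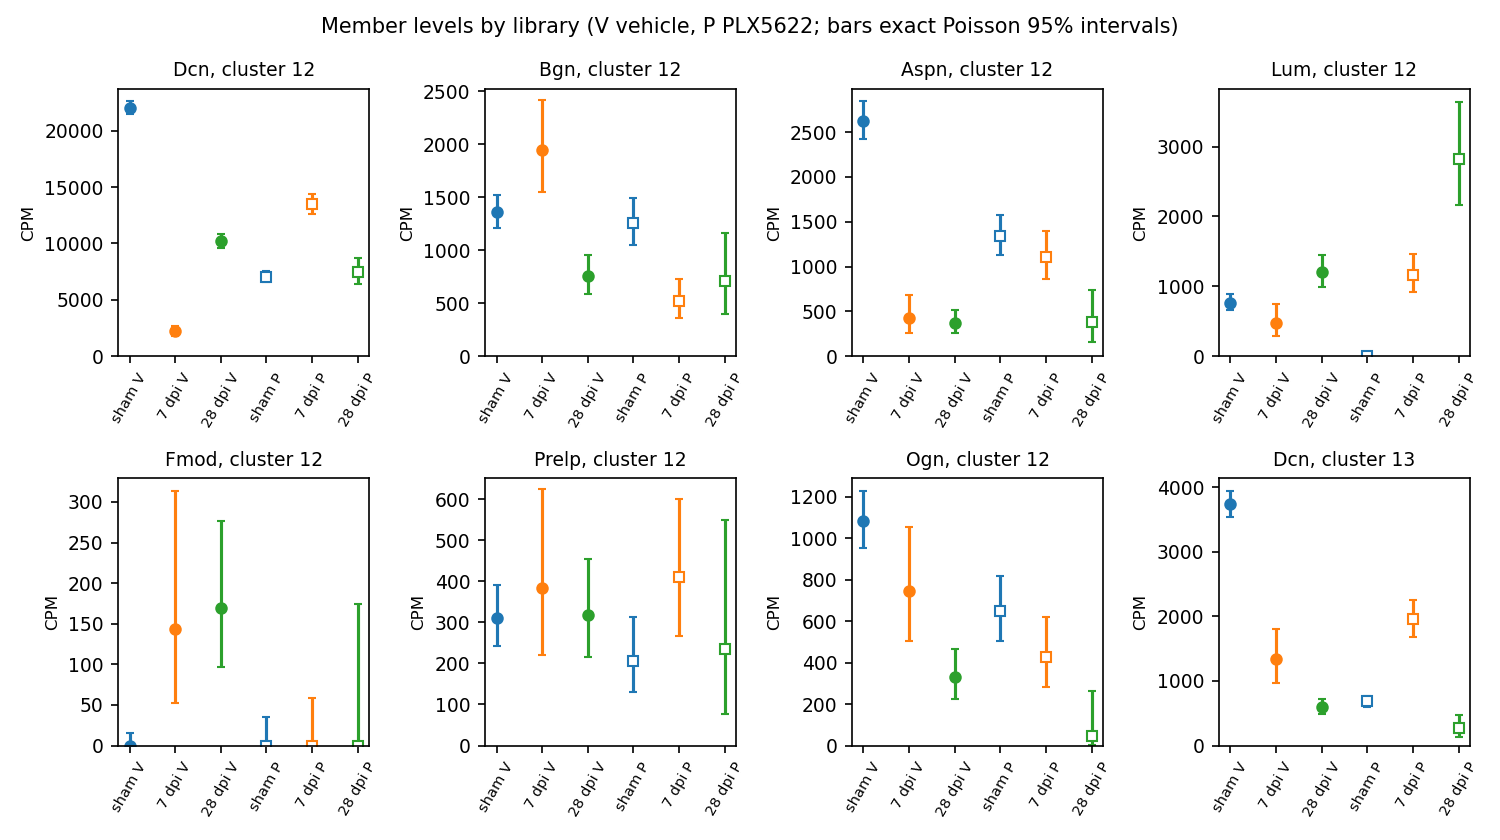
Points give the CPM of each member in cluster 12 by library, and of Dcn in cluster 13 in the last panel (filled circles vehicle, V, and open squares PLX5622, P), with exact Poisson 95% intervals as bars and y axes that start at 0. Dcn in sham vehicle is the highest of the 6 libraries in both clusters, at 22034 and 3735 CPM. The Lum point of sham PLX5622 is at the 0 of the count table, where the library's own matrix gave 28.2 CPM.

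Leptomeningeal-like cluster 13 had almost no mural RNA, with 0 or 1 of 7 mural markers detected in a library and a summed level of at most 10.5 CPM. In it Dcn was again highest in sham vehicle, at 3735 CPM (27 cells), against 1339 CPM at 7 dpi (9 cells) and 594 CPM at 28 dpi (64 cells), and it was 682 CPM in sham (14 cells), 1954 CPM at 7 dpi (12 cells) and 267 CPM at 28 dpi (8 cells) under PLX5622. At 28 dpi under vehicle Dcn was 6.29-fold lower than in sham (log2 ratio -2.65, -2.94 to -2.38), and in sham PLX5622 it was 5.47-fold lower than in sham vehicle (-2.45, -2.66 to -2.25). Both comparisons share the sham vehicle library, where 1 cell gave 407 of 1263 Dcn UMIs, and no ratio was formed without that cell. The 7 dpi vehicle and 28 dpi PLX5622 libraries held fewer than 10 such cells, so their levels are given without ratios.

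Bgn did not move with Dcn in cluster 13. It was 630 CPM in sham, 1246 CPM at 7 dpi and 693 CPM at 28 dpi under vehicle, and 933.5, 1187 and 923 CPM under PLX5622. Its log2 ratio was 0.14 (-0.19 to 0.46) at 28 dpi against sham under vehicle and 0.57 (0.31 to 0.82) in sham PLX5622 against sham vehicle. Of the 327 Bgn UMIs in sham PLX5622, 111 came from 1 cell of 14, and no ratio was formed without that cell. Prelp was 305 CPM in sham vehicle, 187.5 CPM at 28 dpi vehicle and 228 CPM in sham PLX5622, with log2 ratios of -0.70 (-1.29 to -0.14) and -0.42 (-0.86 to 0.02). Ogn was 139, 115 and 157 CPM in those libraries, and the intervals of both ratios held 0.

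Of the 4 members tested in cluster 13, 0 were more than 2-fold higher and 1 more than 2-fold lower at 28 dpi under vehicle, beside 4.34% and 12.8% of 4466 genes. In sham PLX5622 against sham vehicle the counts were again 0 and 1, beside 4.73% and 5.35% of 5472 genes. In both, the member that was lower was Dcn. The sum of the 7 members was 3.03-fold lower at 28 dpi and 2.41-fold lower in sham PLX5622. The 6 members without Dcn had log2 ratios of -0.12 (-0.38 to 0.14) and 0.29 (0.09 to 0.49). The latter includes the 1 cell with 111 of the 327 Bgn UMIs of sham PLX5622, and no ratio was formed without it. Leptomeningeal markers summed to 22832 to 33455 CPM over the 6 libraries, with Aldh1a2 and Slc6a13 at 0 in each, and fibroblast markers to 6408 CPM in sham vehicle, 1813 CPM at 28 dpi vehicle and 3312 CPM in sham PLX5622. The 5 myeloid genes summed to 325, 5423 and 5.71 CPM in these libraries. Without cells that held 3 or more of these UMIs, the log2 ratio of the 7 members was -1.57 at 28 dpi and -1.45 in sham PLX5622, in place of -1.60 and -1.27.

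Prelp in ependymal-like cluster 6 ranged less between libraries than Dcn, Aspn and Lum did in cluster 12. It stood at 685 CPM (605 to 771) in sham, 440 CPM (391.5 to 492) at 7 dpi and 532 CPM (481 to 586) at 28 dpi under vehicle, and at 583 CPM (508 to 666), 557 CPM (497 to 623) and 609.5 CPM (535 to 691.5) under PLX5622. The lowest library was thus 7 dpi vehicle, 1.56-fold below sham vehicle (log2 ratio -0.64, -0.88 to -0.40). The ratio at 28 dpi vehicle was -0.37 (-0.59 to -0.14). At 7 dpi Prelp was 1.27-fold higher under PLX5622 than under vehicle (0.34, 0.11 to 0.57), and in sham and at 28 dpi the intervals between diets held 0.

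The 4 ependymal markers and the 5 myeloid genes varied across the same libraries. The ependymal markers summed to 10165 CPM in sham, 8038 CPM at 7 dpi and 6857 CPM at 28 dpi under vehicle, and to 10802, 10054 and 9314 CPM under PLX5622, with 4 of 4 detected in each. The myeloid genes summed to 88.8, 4936 and 5578.5 CPM under vehicle and 248, 885 and 696 CPM under PLX5622, and their part in the Prelp values was not tested. After thinning to 1000 UMIs, 42.4% of the ependymal-like cells had a Prelp UMI, against 0.0691% of microglia-like cells, and 68.3% without thinning. The other 6 members together had 20 UMIs among 3174694 in this cluster.

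**Figure D5:**
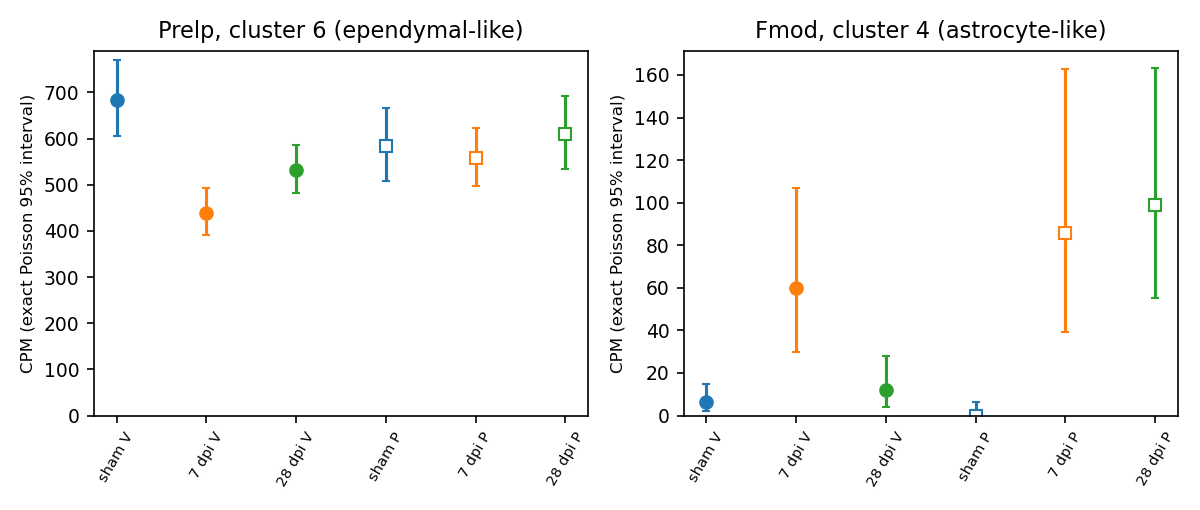
Points give the CPM of Prelp in ependymal-like cluster 6 (left) and of Fmod in astrocyte-like cluster 4 (right) by library (filled circles vehicle, V, and open squares PLX5622, P), with exact Poisson 95% intervals as bars. Prelp lies between 440 and 685 CPM in the 6 libraries, and Fmod, from 0 to 15 UMIs a library, between 0 and 99.0 CPM, the 0 of sham PLX5622 being 2 UMIs in the library's own matrix.

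In astrocyte-like cluster 4 Prelp and Fmod were the members with the most UMIs. Prelp was 26.9 CPM in sham, 125 CPM at 7 dpi and 67.6 CPM at 28 dpi under vehicle and 47.8, 152 and 145 CPM under PLX5622, so the sham library of each diet was the lowest. Fmod had 5 UMIs in 5 cells of sham vehicle, 11 UMIs in 1 cell at 7 dpi and 5 UMIs in 4 cells at 28 dpi. Under PLX5622 it had 9 UMIs in 2 cells at 7 dpi and 15 in 5 cells at 28 dpi. The Fmod levels of 59.9 CPM at 7 dpi vehicle and 85.7 CPM at 7 dpi PLX5622 thus rest on 3 cells in all.

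In endothelial-like cluster 2 most UMIs of each member described here lay in the 1026 cells with more endothelial than mural marker UMIs, 75.4% for Bgn, 70.0% for Aspn, 60% for Ogn and 88.6% for Prelp. The 43 cells with more mural UMIs, 4.00% of the cluster and 31 of them from 28 dpi vehicle, held 36.7% of the Ogn, 28.3% of the Aspn, 24.0% of the Bgn and 11.4% of the Prelp UMIs. In 28 dpi PLX5622, the 4 such cells had 0 Bgn UMIs. Aspn was 200 CPM (138.5 to 279.5) in the 43 cells and 22.0 CPM (17.6 to 27.3) in cells with more endothelial UMIs, Bgn 247 and 34.6 CPM, and Ogn 129 and 9.45 CPM. Of the 22 Ogn UMIs in the 43 cells, 10 came from 1 cell of 28 dpi PLX5622. Bgn in the whole cluster was 6.47 CPM in sham vehicle, from 2 UMIs, and 23.0 to 63.1 CPM in the other 5 libraries. Lum and Fmod had 1 UMI each in this cluster.

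The genes that build, bind or sense these proteoglycans were described from 4 lists. Among 14706 genes with at least 20 UMIs, 17.2% had their highest level in cluster 12 or 13. Of 7 further small leucine-rich repeat genes in the table, 4 did, with Ecm2 at 226 CPM, Omd at 34.0 CPM and Podn at 30.5 CPM in cluster 12. All 4 genes of the chromosome 13 row, Ecm2, Aspn, Omd and Ogn, were therefore highest in the same cluster. Of 16 enzymes that build glycosaminoglycan chains, 7 were highest in these clusters, among them Dse, which makes the iduronate of dermatan sulfate, at 150 CPM, the chondroitin polymerising factor Chpf at 96.3 CPM and the linker enzyme B3gat3 at 81.0 CPM in cluster 13, and the chain-initiating Csgalnact2 at 64.5 CPM in cluster 12.

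Collagens I, III, V and VI and the collagen-processing proteins Bmp1, Pcolce and Lox were highest in cluster 12 or 13 for 11 of 11 genes, of which 4 were also used as fibroblast markers. Col3a1 stood at 6351 CPM, Col1a2 at 3972 CPM and Col1a1 at 1980 CPM in cluster 12. At 28 dpi under vehicle 8 of these 11 genes were more than 2-fold lower than in sham in cluster 12 and 0 higher, beside 17.8% of all genes lower. Their median log2 ratio was -1.49. At 7 dpi 1 of the 11 was lower, beside 17.8% of all 2524 genes tested, with a median of -0.18. The share of fibroblast-marker cells was 28 of 41 in sham and 23 of 66 at 28 dpi, and its part in these counts was not tested. At 7 dpi, where the log2 ratio of Dcn was -3.32, Col1a1 had one of -0.47 (-0.80 to -0.15) and Col3a1 one of -1.65 (-1.92 to -1.40). In sham PLX5622 against sham vehicle 8 of 11 were lower, beside 10.5% of all genes, with a median of -1.34 and 6 of 19 fibroblast-marker cells. In cluster 13 the counts were 7 of 10 at 28 dpi, beside 12.8% of all genes, and 5 of 11 in sham PLX5622, beside 5.35%.

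Receptors and growth factors known to bind the family were spread over the clusters. Tlr2 and Cd14, through which soluble biglycan signals, were highest in microglia-like cluster 0, at 193 and 262 CPM. Tlr4, a further receptor on this list, was highest in cluster 13, at 25.7 CPM, with 23.5 CPM in cluster 0. The endocytic receptor Lrp1 was 686.5 CPM in oligodendrocyte-like cluster 11 and 620 CPM in cluster 12. Igf1r, another receptor that decorin binds, was 977 CPM in endothelial-like cluster 2 and 131 CPM in cluster 12. Egfr, likewise bound by decorin, and Tgfb3 were highest in cluster 13, at 91.5 and 96.3 CPM. In total 4 of these 11 genes were highest in cluster 12 or 13.

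Profiles were compared over 66 units of 1 cluster in 1 library with at least 20 cells, as Pearson correlations of log2(CPM + 1) among 12852 genes. Cluster 12 entered only with the vehicle libraries (41, 20 and 66 cells) and cluster 13 only with sham and 28 dpi vehicle (27 and 64 cells). No PLX5622 unit of these clusters had enough cells. The units of 1 library share its depth and its free RNA, so these values are descriptions. Dcn was most like Col3a1 (0.869), Twist1 (0.857) and C1qtnf2 (0.845), and Bgn like Zic4 (0.854), Igfbp7 (0.851) and Prss23 (0.846). Aspn was most like Foxs1 (0.935), AW549542 (0.925) and C1s1 (0.919), and Ogn like Foxd1 (0.938), Cd248 (0.928) and Twist1 (0.917). Lum was most like Abca8a (0.871), Ccl11 (0.869) and Rbp4 (0.833), and Prelp like Rarres2 (0.914), Ccdc80 (0.904) and Adamtsl1 (0.885). Fmod, with few UMIs, was most like Grm3 (0.754), Itga7 (0.709) and Slc30a10 (0.688). Among the members themselves the highest value was 0.850 for Aspn with Ogn and the lowest 0.194 for Dcn with Fmod.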

How the data were processed

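Per the labels and the study's methods, the authors aligned and annotated single-cell reads with Cell Ranger and a mouse Ensembl annotation, and used Seurat to filter and cluster the cells. The deposited values are raw counts of UMIs per gene and cell, in a matrix for each library before the filter and in 1 table of 21016 filtered cells with a cluster number for each. The table left out 254 barcodes, which held 9 UMIs of the 7 genes, and it was the source of every value except those said to come from a library's own matrix. The vehicle libraries had 7185077 (sham), 35694246 (7 dpi) and 27768968 (28 dpi) UMIs in the table, and the PLX5622 libraries 2606149, 4353923 and 3697581. The bulk RNA samples among the 20 samples of the series were not analysed here.

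UMIs were summed per cluster and library and divided by all UMIs of those cells. Ratios were formed where both libraries had at least 10 cells, and genes were counted past 2-fold where both libraries together had at least 20 UMIs. A count of 0 was taken to allow up to 3 counts. The genes named were the 7 members in every cluster and library, the 2 to 4 genes of each further list with the highest CPM in clusters 12 and 13, and the 3 genes most like each member in profile, among genes with at least 100 UMIs. Tlr2, Cd14 and Tlr4 were also named for their roles, after their values were seen. The members, lists and cell markers were chosen with earlier results of these data known. Doublets were left in, as in the authors' clusters. Alternatives were TMM factors, equal weight for each cell, a minimum of 500 genes per cell, leaving out Scrublet calls, cells with 3 or more myeloid UMIs or the cell richest in members, other thinning and another minimum of 50 UMIs. Only the ratios with their intervals and the counts of genes past 2-fold were tested on simulated data. Those data were independent Poisson counts, without the spread between cells seen here. The tools were Python 3.11.15, numpy 2.4.6, pandas 2.3.3, scipy 1.17.1, scanpy 1.11.5, matplotlib 3.10.9, R 4.3.3 and edgeR 4.0.16, the last for scaling factors only.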

Additional observations from a re-analysis of the deposited data

Results flagged for a closer look

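In cluster 12 some members lay on opposite sides of the sham library at 7 dpi under the 2 diets. For Dcn the log2 ratio of 7 dpi to sham was -3.32 under vehicle and 0.93 under PLX5622. Bgn had the reverse order, 0.52 under vehicle and -1.27 under PLX5622, but 49 of its 81 UMIs at 7 dpi vehicle came from 1 cell, and without the cell richest in members in each library the vehicle value was -0.38. For the 7 members together the values were -2.15 and 0.70, and for the 6 members without Dcn they were -0.57 and 0.07 (-0.17 to 0.31). With 1 library in each condition the difference between diets was not tested, and Dcn in the 7 dpi PLX5622 library came to 98.7% from 3 cells. The library's own matrix of sham PLX5622 held 3 Lum UMIs in cluster 12 where the count table has 0.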

How the results depend on the processing

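Without Dcn, the log2 ratio of the summed members in cluster 12 was -0.57 for 7 dpi and -0.97 for 28 dpi over sham under vehicle, -0.83 for PLX5622 over vehicle in sham, 0.42 at 28 dpi and, reversed, -0.19 at 7 dpi. In cluster 13 it was -0.12 for 28 dpi over sham and, reversed, 0.29 for sham PLX5622 over sham vehicle. Of the 327 Bgn UMIs of sham PLX5622 in this last value, 111 came from 1 cell. With each cell weighted alike, the sums in cluster 12 were -1.82 and -0.72 for 7 and 28 dpi over sham and -2.15, 0.45 and 0.18 for PLX5622 over vehicle in sham, at 7 dpi and at 28 dpi, and -1.37 for 28 dpi over sham in cluster 13, while Lum turned to 0.037 for 7 dpi over sham and -0.54 between diets at 7 dpi. With TMM factors, which shifted log2 ratios by -0.38 for 7 dpi over sham, -0.11 between diets in sham, 0.20 at 7 dpi and -0.71 at 28 dpi and by 0.18 for 28 dpi over sham in cluster 13, the sums that moved were -2.54, -1.53, -0.90 for 28 dpi between diets and -1.42 in cluster 13, and no direction of the 44 values recomputed reversed. Without the cell richest in members in each library, the sums were -2.37 for 7 dpi over sham, -1.79 in sham, 1.07 at 7 dpi and -1.13 at 28 dpi between diets, and reversed values were Bgn -0.38 for 7 dpi over sham and Lum -1.43 and -0.66 between diets at 7 and 28 dpi. The cells left out all lay in cluster 12, so this alternative could not change cluster 13. The cell with 407 of the 1263 Dcn UMIs of cluster 13 in sham vehicle stayed in. So did the cell with 111 of the 327 Bgn UMIs of that cluster in sham PLX5622. With at least 500 genes per cell the sum at 28 dpi between diets was -0.70. Leaving out cells with 3 or more myeloid UMIs gave -1.45 for sham PLX5622 over sham vehicle in cluster 13.

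Other cell sets were added after seeing the data. In mural-marker cells the sums were -1.30 and -1.70 for 7 and 28 dpi over sham and -1.29 between diets in sham. There, reversed values were Bgn -0.32, Lum 0.14 and Ogn 0.047 for 7 dpi over sham, Aspn 0.91 and Lum -2.26 for 28 dpi over sham, and Aspn 2.23 and Ogn 1.03 between diets in sham. In sham vehicle these values rest on single cells: 1 cell with 196 fibroblast and 208 mural marker UMIs held 147 of the 167 member UMIs, with all 3 Lum, all 8 Ogn and 20 of 31 Bgn UMIs, and another cell held all 7 Aspn UMIs. Without the richest such cell in each library the sums reversed, to 0.40 and 0.47 for 7 and 28 dpi over sham and 0.91 between diets in sham, as did Dcn 1.20 for 7 dpi over sham, Bgn 0.096 and Aspn 0.33 for 28 dpi over sham, and Dcn 0.51 and Aspn 1.16 between diets in sham. In fibroblast-marker cells the sum for 28 dpi over sham was -0.27. Leaving out cells whose barcode occurs in more than 1 library reversed 0 and moved 1 of 45 values. Except where the construction shows it, the cause of these changes was not tested.

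The share of member UMIs in clusters 12 and 13 was 77.6% with cells weighted alike, 86.2% without cells with 3 or more myeloid UMIs, 81.0% without the richest cells and 60.2% without Dcn. Cells with at least 2 members were 42.3% of cluster 12 and 15.7% of cluster 13 after thinning to 500 UMIs, and 76.1% of cluster 13 without thinning. At a minimum of 50 UMIs, genes more than 2-fold higher were 7.37% for 7 dpi over sham and 5.73% between diets at 28 dpi in cluster 12, and in cluster 13 between diets in sham 2.67% were higher and 3.56% lower. Scrublet called 1 of 9846 cells of 28 dpi vehicle, so it did not work there, and none of its calls lay in clusters 12 and 13. No paired analysis was possible because each condition was 1 library. Depth limits Fmod most, with 83 UMIs in all.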
